A study of Mus musculus with 35 samples.

Results

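Ribosome biogenesis factors are the proteins that make ribosomes without being part of them. They were read here as 54 listed mouse genes in RNA-seq libraries of OT-I CTLs, cytotoxic CD8+ T cells from mice whose T cells carry 1 transgenic antigen receptor. The genes were taken from a list of names, with no threshold on measured values. That list was chosen with earlier results of these data known, so comparing the members with all genes is not independent of those results. All 54 members were matched among the 48709 genes of each count table. Of the 54, 53 passed a filter on low counts. The exception was Wdr74, a factor of the large subunit, which had between 0 and 0.437 CPM in every library and was not tested. Why its counts were so low, in the cells or in the counting, was not examined. CPM is the count of a gene scaled to a common library size, here after TMM normalization, which rescales libraries so that most genes agree between them.

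The study compared acidity and IL-2, the cytokine that drives CTL expansion. CD8+ T cells were purified from OT-I spleens by negative selection, activated with antibodies to CD3 and CD28, and expanded with IL-2, so that all groups share this priming and earlier IL-2. The 0 h group was harvested before the cultures were set up. The other 6 groups were cultured for 24 h in medium at pH 7.4, pH 7 or pH 6.6, each without added IL-2 or with IL-2 at 200 IU/mL, and each of the 7 groups held 5 replicates. Acidity was set with hydrochloric acid, and dead cells were removed on Ficoll before RNA extraction. The animals' age and sex were not given in the sources used here, and nothing in them says that a replicate number marks 1 mouse or 1 culture, so that p-values measure the spread between these libraries.

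Ribosome assembly starts in the nucleolus, where RNA polymerase I makes a long precursor rRNA. Small nucleolar ribonucleoproteins (snoRNPs) modify that RNA, the small subunit processome and the PeBoW complex take part in its folding and cleavage, and further factors carry the small (40S) and large (60S) subunits to the cytoplasm. In T cells this program is known to be switched on with growth and division, and c-Myc, a transcription factor that binds the E-box CACGTG, is known to be one of its activators.

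The promoters of the members were read first, since a shared E-box is a feature that the list did not use. A promoter window was 300 bases long, from 250 bases before to 50 bases after a RefSeq transcription start (GRCm38.p6). It was found for 47 of the 54 members, and not for Fbl, Npm1, Bop1, Nol6, Rrp12, Rrs1 and Gnl2. CACGTG, which reads the same on both strands, was in a window of 11 of these 47 members (23.4%). It was in a window of 11.6% of the 9977 tested genes that had one, of 8.09% of all 27025 genes with one and in 7.15% of all 32851 windows. The 11 members were Mybbp1a, Pes1, Utp18, Utp20, Wdr43, Imp4, Ltv1, Pno1, Tsr1, Nop2 and Grwd1. A second motif of housekeeping promoters, that of ZBTB33 (Kaiso), was in a window of 0 of the 47 members and of 0.525% of all genes with a window. At so low a share, 0 of 47 was likely in advance and tells nothing about the members or about CACGTG. A match is a description of letters, and factor binding was not measured. The windows of 5 members are printed 5′ to 3′ on the strand of the gene, with the E-box in capitals. Those of Grwd1 (chr7:45830740-45831039, minus strand), Utp20 (chr10:88826765-88827064, minus strand) and Pno1 (chr11:17211540-17211839, minus strand) are shown because these members had the largest fall of their role or of a comparison and hold the motif at 34, 37 and 37 bases after the start. Those of Nolc1 (chr19:46075597-46075896, plus strand) and Emg1 (chr6:124712129-124712428, minus strand) are shown because they hold none, although Nolc1 had one of the largest differences with acid and Emg1 one of the smallest.
Grwd1: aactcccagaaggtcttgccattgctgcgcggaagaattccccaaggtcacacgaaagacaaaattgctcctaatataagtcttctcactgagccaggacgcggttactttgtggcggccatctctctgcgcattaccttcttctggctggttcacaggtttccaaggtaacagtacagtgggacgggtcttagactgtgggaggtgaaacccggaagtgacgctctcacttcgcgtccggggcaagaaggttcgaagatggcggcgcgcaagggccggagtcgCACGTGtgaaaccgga
Utp20: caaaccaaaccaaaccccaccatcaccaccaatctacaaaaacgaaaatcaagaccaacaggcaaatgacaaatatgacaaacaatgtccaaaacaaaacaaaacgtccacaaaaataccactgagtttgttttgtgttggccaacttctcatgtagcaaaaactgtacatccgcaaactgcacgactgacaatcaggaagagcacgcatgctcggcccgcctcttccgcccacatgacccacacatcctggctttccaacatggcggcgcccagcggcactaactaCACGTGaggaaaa
Pno1: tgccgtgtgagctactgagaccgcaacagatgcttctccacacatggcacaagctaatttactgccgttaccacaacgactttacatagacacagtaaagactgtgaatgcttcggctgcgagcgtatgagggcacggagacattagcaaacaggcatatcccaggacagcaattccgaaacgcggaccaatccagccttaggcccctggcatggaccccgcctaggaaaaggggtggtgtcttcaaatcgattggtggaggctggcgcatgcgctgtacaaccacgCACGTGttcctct
Nolc1: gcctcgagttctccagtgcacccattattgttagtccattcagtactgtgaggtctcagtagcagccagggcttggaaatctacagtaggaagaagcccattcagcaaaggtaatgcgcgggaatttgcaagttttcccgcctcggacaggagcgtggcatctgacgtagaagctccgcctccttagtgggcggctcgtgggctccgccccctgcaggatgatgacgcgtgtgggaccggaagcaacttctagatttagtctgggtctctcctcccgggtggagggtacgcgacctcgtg
Emg1: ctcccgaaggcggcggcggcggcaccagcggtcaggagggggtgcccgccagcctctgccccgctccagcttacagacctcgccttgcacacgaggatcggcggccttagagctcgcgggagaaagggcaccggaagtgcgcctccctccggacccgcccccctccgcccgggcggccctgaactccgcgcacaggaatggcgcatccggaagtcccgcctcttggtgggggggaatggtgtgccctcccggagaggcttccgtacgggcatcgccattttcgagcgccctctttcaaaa
Members with and without the motif had close medians but different spans. For pH 6.6 against pH 7.4 with IL-2, the median log2 fold change was -1.94 (-2.70 to -1.28) in the 11 members with CACGTG. It was -1.98 (-2.65 to -0.40) in the 35 tested members whose windows lacked it. Sites outside these windows were not searched, and whether the motif bears on the changes was not tested.

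Another shared feature was the hosting of snoRNA genes, the guides that snoRNPs carry, within the gene. Of the 54 members, 8 (14.8%) hosted 23 snoRNA genes on the same strand, against 1.65% of the tested genes that were matched to the annotation (GENCODE M21). The hosts were Nop56 with 5, Nop58 with 4, Ncl, Wdr43 and Gnl3 with 3 each, Tsr1 and Ppan with 2 each and Dkc1 with 1. The median log2 fold change in the same comparison was -1.99 over the 8 hosts and -1.74 over the other 45 tested members.

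The libraries held 16721319 to 34033340 counts on genes, with a median of 24730020, and the lowest count of a tested member in any library was 50 (Bysl at pH 6.6 without IL-2). Reads with several alignments were given to no gene, and their entries made up 32.8% to 48.3% of all counts of a library, on genes or not. Whether such a read was entered once or once per alignment is not given in the sources used here. The highest share was in replicate 5 at 0 h, where the other 0 h libraries had 39.3% to 42.7%, and the comparisons with 0 h were therefore also made without it. All 8 markers of CD8+ T cells were present, and their summed level was 9692 to 12440 CPM at pH 7.4 and 3557 to 4939 CPM at pH 6.6, both with IL-2. At pH 7.4 without IL-2 it was 3306 to 3985 CPM, and most of the difference between these groups was Gzmb. The other markers moved in both directions between the neutral and the acid IL-2 cultures. Mean Prf1 fell from 380 to 92.7 CPM, while Cd3e rose from 411 to 581 CPM and Trac from 357 to 572 CPM. Cd8a was 938 ± 168 CPM and 1046 ± 159 CPM (SD, n = 5). Means of Cd3d were 320.5 and 308.9 CPM, of Cd3g 538 and 536 CPM and of Cd8b1 255 and 270 CPM. Of the B cell markers, Ms4a1 was at 0 in every library and Cd79a reached at most 0.254 CPM, but Ighm moved with the groups, with 59.2 to 149.7 CPM at pH 7.4 and 184 to 405 CPM at pH 6.6, both with IL-2, and 265 to 737 CPM at pH 7.4 without IL-2, and its part in the results was not tested. Markers of CD4 T cells summed to at most 5.50 CPM, of macrophages and monocytes to at most 3.99 CPM, of erythroid cells to at most 0.274 CPM and of NK cells to at most 94.96 CPM. The NK cell sum differed between groups, from 8.27 to 12.1 CPM at pH 6.6 without IL-2 to 83.4 to 94.96 CPM at 0 h. Little of it came from Ncr1 (at most 0.0694 CPM) or Klra8 (at most 0.042 CPM). All levels are shares of a library's RNA, so that fewer cells of a type and less RNA per cell cannot be told apart.

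The members' share of all gene counts was highest with IL-2 at neutral pH. With the cytokine it was 1.04 ± 0.03% at pH 7.4, 0.8 ± 0.068% at pH 7 and 0.438 ± 0.040% at pH 6.6 (SD, n = 5 each). Without IL-2 it was 0.367 ± 0.024% at pH 7.4, 0.368 ± 0.010% at pH 7 and 0.389 ± 0.006% at pH 6.6, and at 0 h it was 0.815 ± 0.090%. The 3 ranges with IL-2 did not overlap one another (0.998% to 1.08%, 0.711% to 0.886% and 0.389% to 0.481%), whereas the range at 0 h (0.705% to 0.948%) covered that at pH 7 with IL-2. Npm1 and Ncl, the abundant nucleolar phosphoproteins, made up much of this share, from 33.1% of the members' summed mean CPM at pH 7 with IL-2 to 62.2% at pH 6.6 without IL-2.

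**Figure D1:**
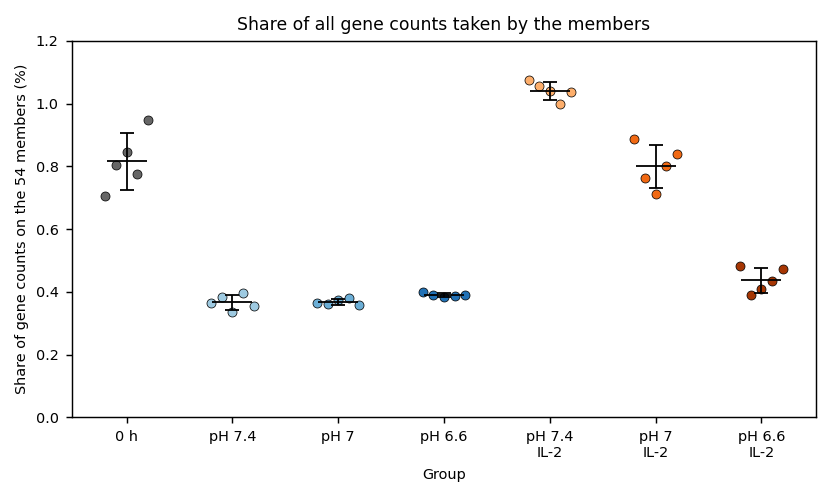
Share of all gene counts that fell on the 54 members (%, vertical axis) in each of the 35 libraries, by group. Points are libraries, long bars the mean of 5 and error bars the SD. The libraries at pH 7.4 with IL-2 lie at 1.04 ± 0.03% and the acid ones with IL-2 at 0.438 ± 0.040%, near the 3 groups without IL-2.

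Per length of exon (RPKM), the order of the members was led in every group by Npm1, with 536 RPKM in the pH 7.4 and 407 RPKM in the pH 6.6 cultures given IL-2, and then by Ncl, with 243 and 118 RPKM. At the other end of the tested members stood Wdr12, with 6.75 and 1.18 RPKM, and Fbl, with 5.85 and 1.77 RPKM. The annotated exons of Wdr12 cover 11955 bases, the longest of the members, and RPKM divides by this length. In CPM, Wdr12 was at 75.6 to 88.6 in the pH 7.4 cultures given IL-2, above Grwd1 at 48.8 to 54.7. The level of Fbl, the methyltransferase of box C/D snoRNPs, is uncertain, since only 80.3% of its 50-base windows were unique to it among annotated transcripts. The same holds for Npm1 (75.7%), Npm3 (74.4%), Pes1 (76.7%), Tsr1 (70.9%), Ddx18 (44.1%) and Nop56 (81.4%), followed by Wdr3 (86.1%) and Mrto4 (87.75%). A window shared with a transcript on the opposite strand also counted as not unique, and 32.3% of the exon bases of Tsr1 lie opposite another gene. The highest mean CPM was at pH 7.4 with IL-2 for 49 of the 53 members, a pattern held by 24.5% of all tested genes. It was at 0 h for the other 4 (15.2% of all tested genes). The lowest was at pH 6.6 without IL-2 for 31 members (22.6% of all tested genes) and at pH 7 without IL-2 for 15 (12%). It was in the pH 7.4 group lacking IL-2 for 6 (13%) and at pH 6.6 with IL-2 for 1 (7.06%).

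**Figure D2:**
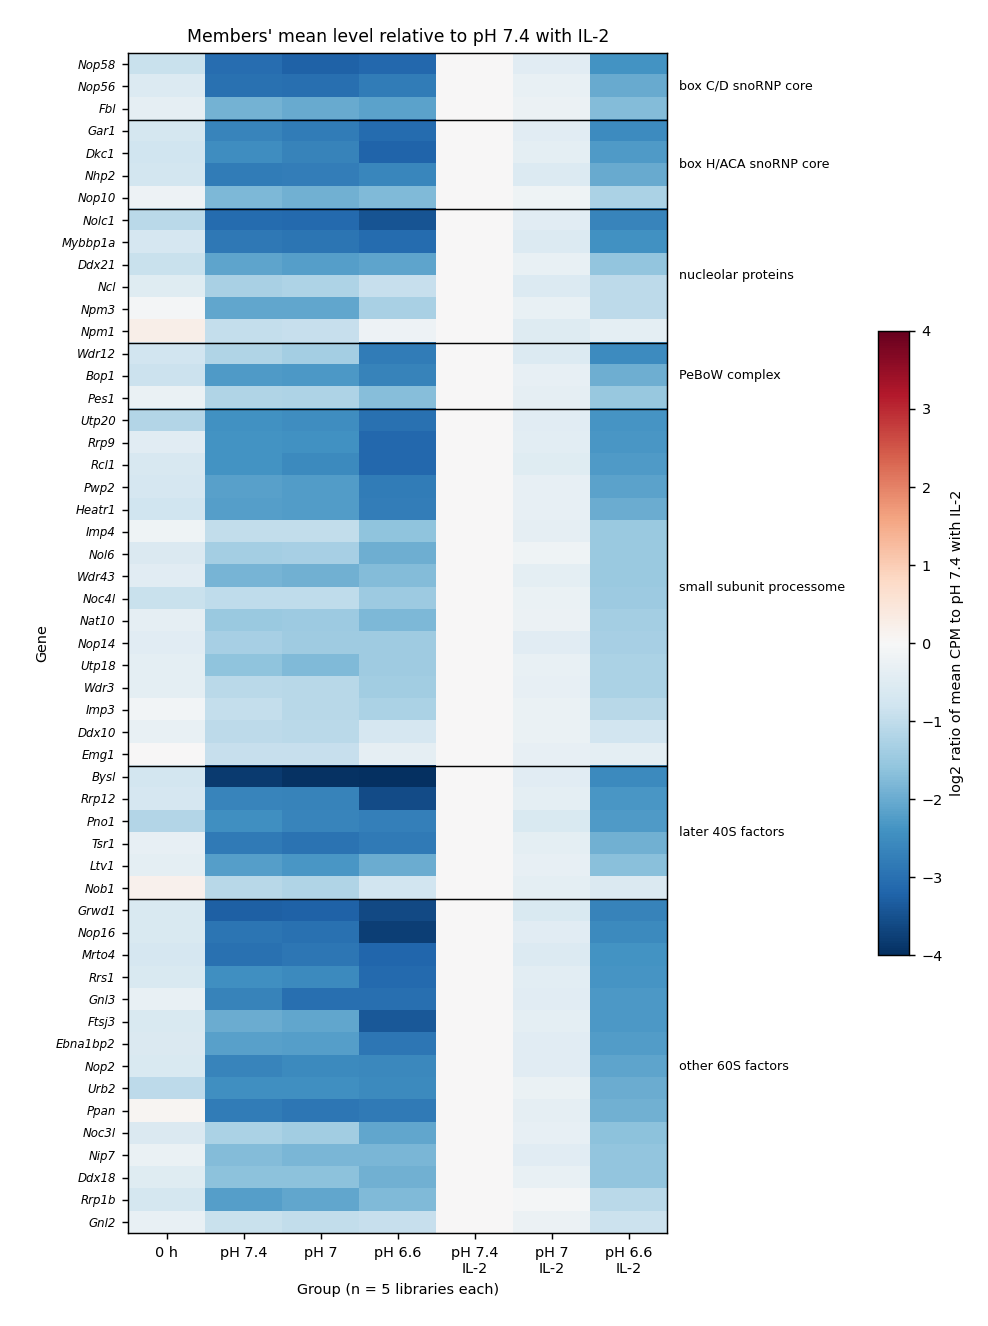
Mean level of the 53 tested members (rows, grouped by role) in the 7 groups (columns), as the log2 ratio of mean CPM to that at pH 7.4 with IL-2 (colour, 5 libraries a group). The columns without IL-2 and the column at pH 6.6 with IL-2 are blue in nearly every row, and the column at pH 7 with IL-2 is paler.

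The main question was how acidity changed the members in CTLs that had IL-2. At pH 6.6 with IL-2, all 53 tested members were lower than at pH 7.4 with IL-2 (edgeR's quasi-likelihood test, threshold of 0.05 on the adjusted p), against 40.9% of all genes tested that were lower and 35.4% that were higher. Of the 53, 48 fell at least 2-fold, as did 19% of all genes. The median log2 fold change of the members was -1.94, from -2.70 in Grwd1 to -0.39 in Npm1, and that of all genes was -0.07. Each of the 53 was lower in 5 of 5 replicate pairs, with no overlap between the ranges of the 2 groups, which was so in the lower direction for 33.1% of all genes. The median of the members within a pair was from -2.20 to -1.63, lowest in replicates 3 and 2.

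Among the snoRNP proteins, the 3 listed core proteins of box C/D snoRNPs, which carry the guides for methylation of rRNA, fell with a median of -2.04. The 4 listed ones of box H/ACA snoRNPs, which carry the guides for pseudouridylation, fell with a median of -2.15. Nop58 (ENSMUSG00000026020, chr1:59684971-59719044), a box C/D scaffold protein, was at 404, 395, 414, 351 and 387 CPM in replicates 1 to 5 of the neutral IL-2 libraries (pH 7.4) and at 81.1, 59.7, 68.8, 76.3 and 84.0 CPM in the acid IL-2 libraries (pH 6.6), an order of replicates and groups kept for the members that follow. Every acid library was thus far below every neutral one, a fall by 2.40 on the log2 scale (standard error 0.11, adjusted p = 1.43e-18). Fbl (ENSMUSG00000046865, chr7:28169710-28179269) was at 26.5, 21.5, 26.8, 23.6 and 24.8 CPM at pH 7.4 and at 7.11, 6.16, 6.75, 7.77 and 9.54 CPM at pH 6.6. This was the smallest fall of the 3 listed box C/D proteins (log2 fold change -1.74, standard error 0.13, adjusted p = 6.93e-14). Gar1 (ENSMUSG00000028010, chr3:129824912-129831396), an H/ACA protein, was at 59.95, 52.7, 59.3, 53.4 and 58.9 CPM and at 12.5, 8.24, 9.14, 8.88 and 10.7 CPM, a fold of 5.79 (log2 fold change -2.53, standard error 0.11, adjusted p = 1.17e-19). Nop10 (ENSMUSG00000027133, chr2:112261926-112263269), the smallest H/ACA protein, fell less. It was at 76.2, 69.8, 75.8, 74.7 and 91.4 CPM and at 28.7, 27.4, 30.4, 34.04 and 41.4 CPM, with replicate 5 the highest in both groups (log2 fold change -1.27, standard error 0.11, adjusted p = 5.83e-12). Nop56 (-2.04), Dkc1, the pseudouridine synthase (-2.28), and Nhp2 (-2.01) lay between them.

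The nucleolar phosphoproteins, chaperones and RNA polymerase I partners had the widest spread and a median of -1.31. Nolc1 (ENSMUSG00000015176, chr19:46075863-46085530), which shuttles snoRNPs, was at 304, 321, 301, 284 and 296 CPM in the neutral IL-2 libraries and at 54.1, 38.0, 34.5, 56.7 and 58.7 CPM in the acid ones. Its fall was 6.26-fold (log2 fold change -2.65, standard error 0.14, adjusted p = 1.52e-17), and the libraries of replicates 2 and 3 were the lowest of the acid group. Npm1 (ENSMUSG00000057113, chr11:33152287-33163206), nucleophosmin, was at 1345, 1362, 1422, 1396 and 1613 CPM and at 1117, 1038, 1161, 970.3 and 1132 CPM. The groups did not overlap, but its fall was the smallest of all members (1.31-fold, log2 fold change -0.39, standard error 0.11, adjusted p = 0.00265). Mybbp1a, a nucleolar protein that binds Myb, had a log2 fold change of -2.42, Ddx21, an RNA helicase, of -1.57, and Ncl (nucleolin) and Npm3 of -1.04 and -1.03.

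In the PeBoW complex, which serves the maturation of the large subunit rRNA, the 3 members fell with a median of -1.95. Wdr12 (ENSMUSG00000026019, chr1:60069785-60098645) was at 88.6, 79.2, 77.7, 75.6 and 82.1 CPM in the neutral IL-2 libraries and at 18.1, 10.19, 11.8, 15.3 and 14.95 CPM in the acid ones (log2 fold change -2.53, standard error 0.12, adjusted p = 8.67e-19). Pes1 (ENSMUSG00000020430, chr11:3963975-3980004) was at 152, 143, 137, 142 and 146 CPM and at 53.4, 46.2, 43.3, 53.8 and 55.4 CPM, a smaller fall (log2 fold change -1.52, standard error 0.07, adjusted p = 2.17e-18). Bop1 lay between the 2 at -1.95.

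The small subunit processome, which builds the earliest precursor of the small subunit, had 16 members and a median of -1.47. Utp20 (ENSMUSG00000004356, chr10:88746607-88826804) was at 159, 174, 142, 119 and 109 CPM in the neutral IL-2 libraries and at 30.2, 23.8, 21.6, 30.01 and 30.4 CPM in the acid ones (log2 fold change -2.37, standard error 0.14, adjusted p = 3.64e-16). Emg1 (ENSMUSG00000004268, chr6:124704085-124712178), a methyltransferase of the small subunit rRNA, was at 139, 151, 154, 169 and 187 CPM and at 110, 122, 115, 132 and 126 CPM. Its groups were close to each other without overlap, and it fell by 0.40 on the log2 scale (standard error 0.10, adjusted p = 0.000396). Of its exon bases, 7.21% lie opposite another gene, and whether the counting used the strand is not given in the sources used here. After Utp20, the members with the lowest values in this group were Rrp9 (-2.33), a protein of the U3 snoRNP, and Rcl1 (-2.30), and next to Emg1 stood the helicase Ddx10 (-0.75).

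Of the 6 later factors of the small subunit, 5 fell at least 2-fold and the median was -2.11. Bysl (ENSMUSG00000023988, chr17:47599331-47611492), bystin, which is needed for the export of the small subunit precursor, was at 69.0, 62.6, 55.5, 65.9 and 59.7 CPM in the neutral IL-2 libraries and at 14.6, 6.80, 7.76, 12.1 and 12.5 CPM in the acid ones. Again replicates 2 and 3 were the lowest of the acid libraries (log2 fold change -2.55, standard error 0.16, adjusted p = 1.24e-15). The endonuclease Nob1 (ENSMUSG00000003848, chr8:107412486-107425051), which makes the final cut of the small subunit rRNA, was at 67.5, 64.6, 59.0, 69.3 and 72.1 CPM and at 46.2, 43.6, 42.0, 45.6 and 44.1 CPM. It was the member of this group that fell by less than 2-fold (log2 fold change -0.58, standard error 0.07, adjusted p = 2.53e-09). Of the exon bases of Bysl 9.37% lie opposite another gene, and of those of Tsr1, a GTPase-like factor that fell by 1.94 on the log2 scale, 32.3%.

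The other factors of the large subunit had 15 tested members and a median of -2.11. Grwd1 (ENSMUSG00000053801, chr7:45825223-45830944), a chaperone of a ribosomal protein, was at 52.0, 52.7, 48.8, 51.8 and 54.7 CPM in the neutral IL-2 libraries and at 8.96, 5.44, 4.95, 11.2 and 9.99 CPM in the acid ones. This fold of 6.52 was the largest of all members (log2 fold change -2.70, standard error 0.17, adjusted p = 7.48e-16) and replicates 3 and 2 were again the lowest of the acid group. Gnl2 (ENSMUSG00000028869, chr4:125016585-125055380), a GTPase that acts before export of the large subunit, was at 122, 120.0, 118, 116 and 128 CPM and at 68.4, 64.3, 66.7, 64.1 and 69.0 CPM, and fell least in this group (log2 fold change -0.86, standard error 0.07, adjusted p = 5.26e-13). Nop16 (-2.57), Mrto4, a factor related to a protein of the ribosomal stalk (-2.41), and Rrs1 (-2.36) followed Grwd1, and Rrp1b (-1.08) stood next to Gnl2.

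**Figure D3:**
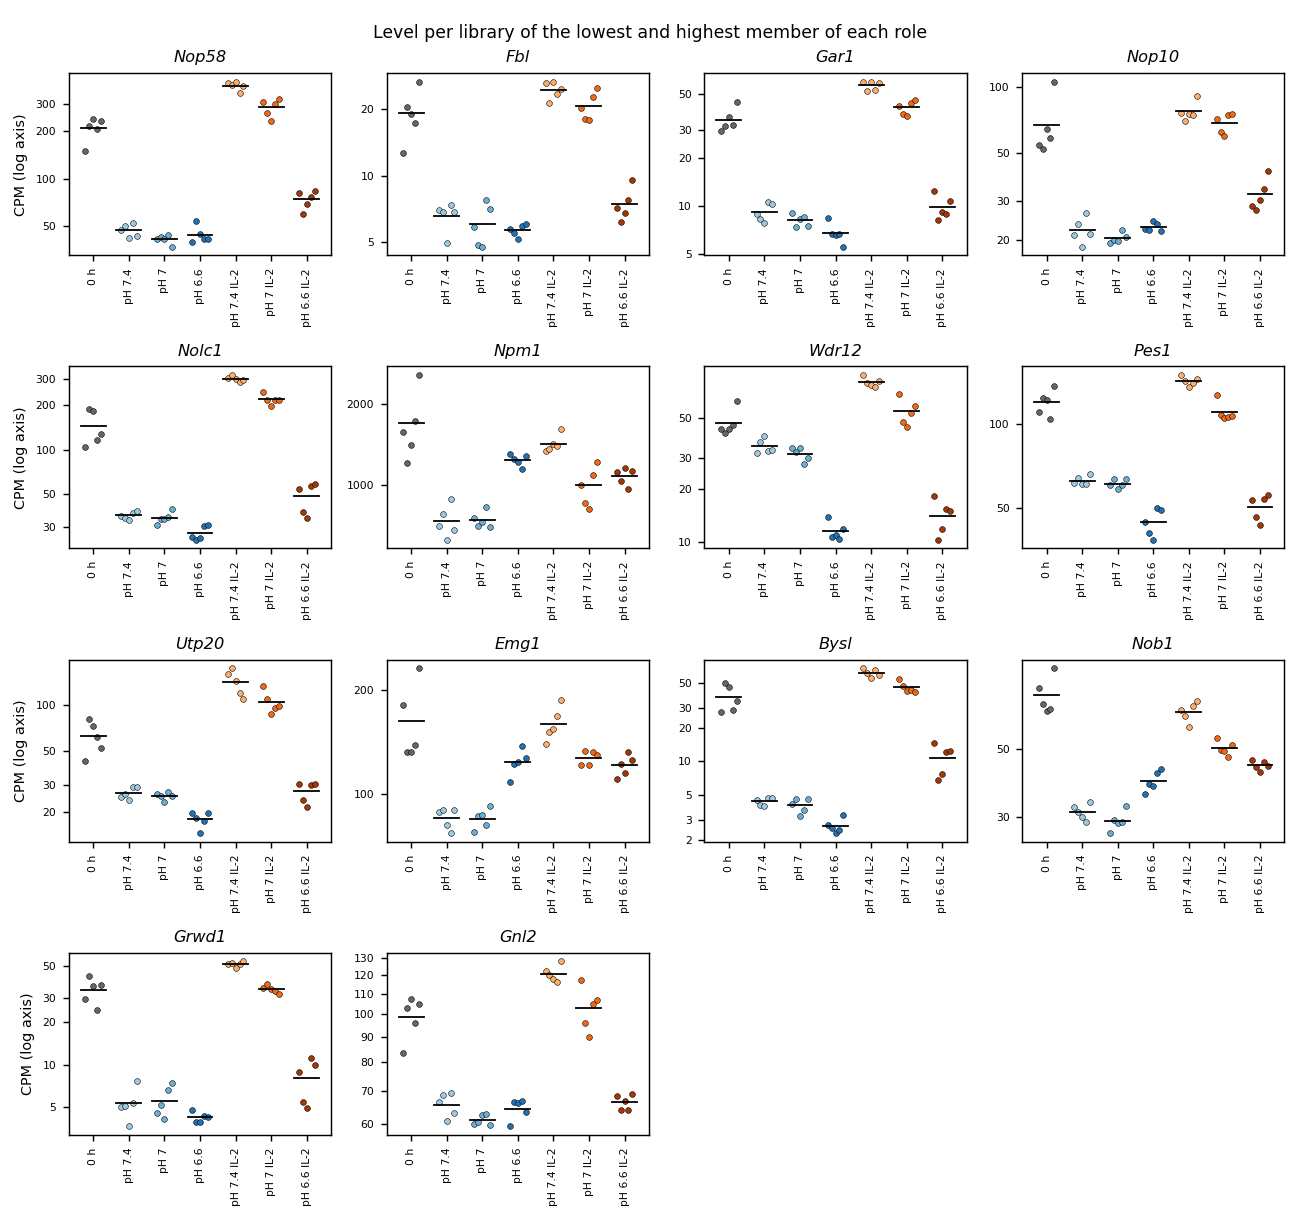
Level (CPM, log axis) of 14 members in each of the 35 libraries, by group. In each of the 7 role classes these are the members with the lowest and the highest log2 fold change at pH 6.6 against pH 7.4 with IL-2, points are libraries and lines are means of 5. In all 14, the 5 libraries at pH 6.6 with IL-2 lie below the 5 at pH 7.4 with IL-2, and Npm1, Emg1 and Nob1 have libraries at pH 6.6 without IL-2 above those at pH 7.4 without IL-2.

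At the milder pH 7 with IL-2, 40 of the 53 members were lower than at pH 7.4 with IL-2 and 0 were higher, against 9.83% of all genes lower and 9.15% higher. The size was small, with a median of -0.38 and a lowest value of -0.62, and the ranges did not overlap for 34 members, against 8.63% of all genes. Pno1, a factor of the small subunit that binds near the site cut by Nob1, went from 99.8 to 65.3 CPM (log2 fold change -0.62, standard error 0.11, adjusted p = 0.000303), Grwd1 from 52.0 to 34.4 CPM (-0.59, standard error 0.15, adjusted p = 0.00593) and Wdr12 from 80.6 to 54.8 CPM (-0.57, standard error 0.11, adjusted p = 0.000469). At the other end, Rrp1b was at 167 and 159 CPM (-0.07, adjusted p = 0.659), Nol6 at 111 and 98.4 CPM (-0.17, adjusted p = 0.56) and Nop10 at 77.6 and 68.7 CPM (-0.17, adjusted p = 0.281). In the 5 pairs the median of the members was from -0.51 to -0.27, and without replicate 3 the count of members called fell to 21. The mean CPM fell at each step from pH 7.4 to pH 7 to pH 6.6 with IL-2 in 52 of the 53 members, against 34.8% of all genes. The exception was Npm1, with 1428, 1001 and 1084 CPM.

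Without IL-2, the same acidity gave another picture, with members in both directions. At pH 6.6 without IL-2, 27 of the 53 members were lower and 8 higher than at pH 7.4 without IL-2 (50.9% and 15.1% of the members), against 35.4% of all genes lower and 31.6% higher. The median of the members was -0.28. Ranges without overlap were found for 22 members in the lower direction and 9 in the higher, against 24.9% and 22.4% of all genes. The largest falls were in Wdr12, Ftsj3 and Rrp12. Wdr12 was at 31.9, 36.8, 39.6, 32.6 and 32.96 CPM at pH 7.4 and at 13.8, 10.7, 10.9, 10.3 and 11.8 CPM at pH 6.6, with every acid library below every neutral one (log2 fold change -1.61, standard error 0.12, adjusted p = 2.28e-13). Ftsj3, a methyltransferase of the large subunit precursor, was at 43.9, 42.6, 40.2, 42.0 and 47.8 CPM and at 16.8, 15.7, 13.9, 19.8 and 16.1 CPM (-1.40, standard error 0.12, adjusted p = 1.61e-11). These were the only 2 members that changed by 2-fold or more, against 13.5% of all genes that fell so far, and Rrp12, which serves the export of both subunits, fell by 0.95 on the log2 scale (adjusted p = 1.15e-05).

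The 8 members that rose at pH 6.6 without IL-2 were Npm3, Npm1, Emg1, Rrp1b, Ddx10, Ncl, Nob1 and Ltv1, each in 5 of 5 pairs and without overlap of the groups. Npm3, a chaperone of the nucleoplasmin family, was at 26.3, 25.3, 23.6, 22.7 and 27.1 CPM at pH 7.4 and at 40.5, 44.4, 40.7, 48.8 and 41.5 CPM at pH 6.6 (log2 fold change 0.79, standard error 0.08, adjusted p = 9.49e-10). Npm1 was at 710.4, 781, 628, 892 and 687 CPM and at 1304, 1250, 1224, 1152 and 1281 CPM (0.75, standard error 0.12, adjusted p = 1.02e-06), beside 1428 ± 108 CPM (SD, n = 5) at pH 7.4 with IL-2. Emg1 was at 85.2 ± 5.98 CPM and 124 ± 10.7 CPM (SD, n = 5; 0.54, adjusted p = 1.13e-05). The other 5 rose by 0.25 to 0.43. Of these, Ltv1 (adjusted p = 0.04) did not pass the threshold under most of the alternatives, and Ncl (adjusted p = 0.00626) did not pass it with upper-quartile scaling or library totals. By role, the 3 box C/D members did not pass the threshold (median -0.09) and the 3 PeBoW members fell (-0.50). In the processome 11 of the 16 members fell and 2 rose (-0.38), and among the nucleolar proteins 3 of 6 rose and 1 fell (0.18).

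At pH 7 without IL-2, 0 of the 53 members passed the threshold in edgeR's test and 0 in DESeq2, against 1.36% of all genes higher and 0.318% lower in edgeR. An unadjusted p under 0.05 was found for 1 member, against 8.13% of all genes tested, and the lowest adjusted p of a member was 0.428. The median was -0.07, and the lowest values were those of Gnl3, nucleostemin (-0.36), Dkc1 (-0.21) and Nop58 (-0.19). The highest were those of Mrto4, Nop2 and Rrp1b. In a fit of these 2 groups alone, Gnl3, Dkc1 and Nop58 passed the threshold.

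Whether IL-2 altered the response to pH 6.6 was tested directly, and it did for all 53 members. The interaction term, which is the log2 fold change of acid with IL-2 minus that without, was below 0 and past the threshold in 53 of 53 members and in 5 of 5 replicates, against 32.8% of all genes below 0 and 34.3% above 0 and past it. Its median was -1.52, and in 43 members it was -1 or lower, against 15.5% of all genes. It was lowest in Grwd1 (-2.38, standard error 0.25, adjusted p = 3.9e-10), Nop58 (-2.31, standard error 0.16, adjusted p = 2.5e-14) and Nolc1 (-2.25, standard error 0.19, adjusted p = 4.46e-12), and nearest to 0 in Noc3l (-0.85), Gnl2 (-0.84) and Imp3 (-0.78, standard error 0.15, adjusted p = 2.04e-05). By role it was -2.22 in box C/D proteins, -1.84 in H/ACA proteins, -1.02 in PeBoW members and -1.18 in the processome.

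**Figure D4:**
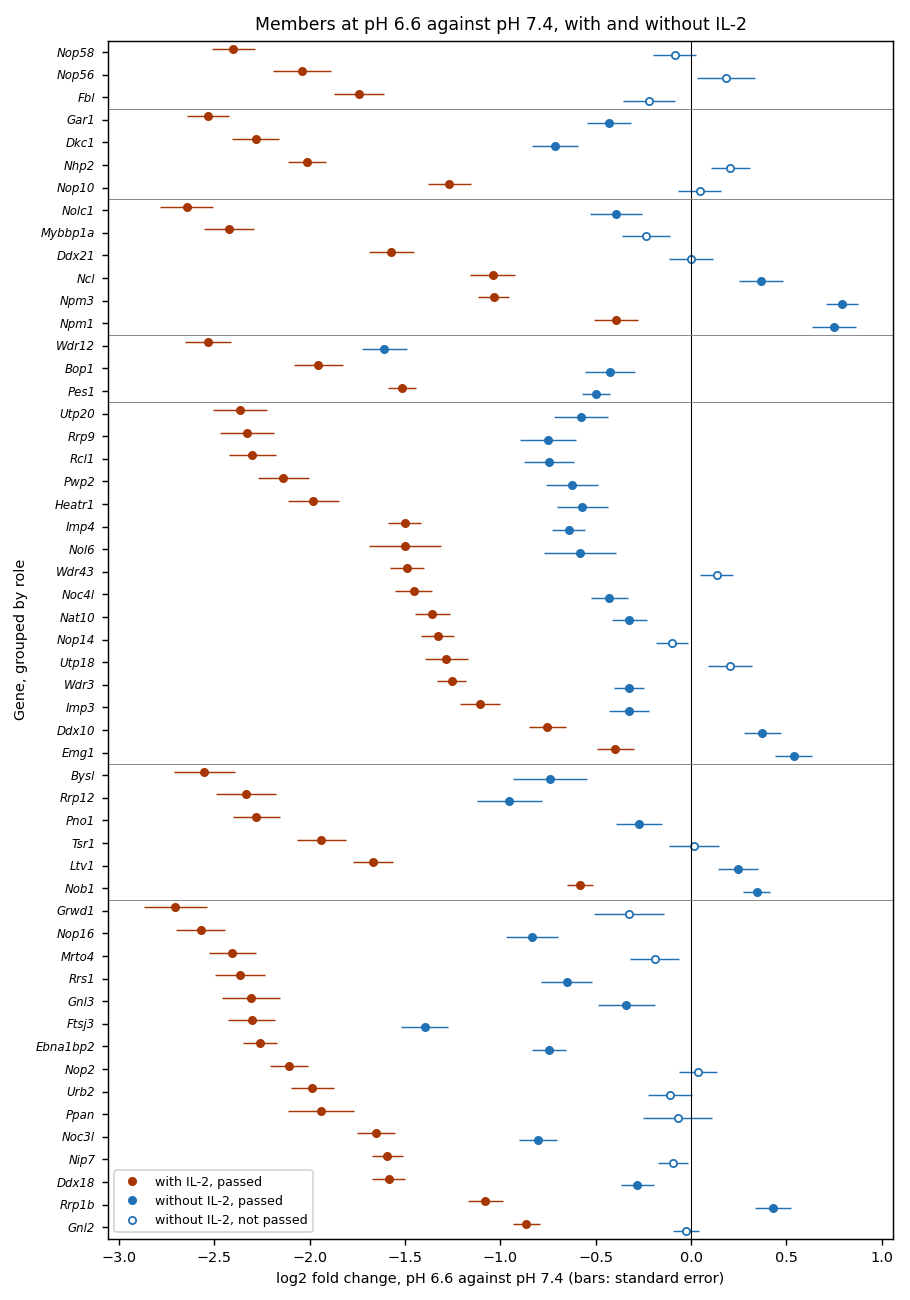
log2 fold change of pH 6.6 against pH 7.4 (horizontal axis, bars are standard errors) of the 53 tested members, by role, with IL-2 (brown) and without IL-2 (blue), open where the threshold was not passed. All brown points lie below 0, between -2.70 and -0.39, whereas the blue points lie between -1.61 and 0.79 and 18 of them are open.

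The response to IL-2 itself was read at each pH. At pH 7.4, all 53 members were higher with IL-2 than without, against 39.3% of all genes higher and 41.1% lower, with a median of 2.17. The ranges did not overlap for any member, against 32.8% of all genes higher in that way, and 48 rose at least 2-fold, against 20.1%. The largest rises were those of Bysl, from 4.40 to 62.5 CPM (log2 fold change 3.83, standard error 0.17, adjusted p = 1.25e-19), Grwd1, from 5.36 to 52.0 CPM (3.30), and Nolc1, from 36.1 to 301 CPM (3.07). The smallest were those of Gnl2 (0.88), Emg1 (0.90) and Npm1 (0.95). At pH 7, all 53 were again higher with IL-2, against 37.6% of all genes higher and 39.5% lower, with a median of 1.89 and the range from Npm1 (0.41), Emg1 (0.59) and Imp4 (0.63) to Nop56 (2.75), Nop58 (2.78) and Bysl (3.50). Ranges were apart for 52 (32.1% of all genes), all but Npm1, and 40 rose at least 2-fold (17.3%). With upper-quartile scaling Npm1 did not pass the threshold there (0.22, adjusted p = 0.0723).

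At pH 6.6 the members' response to IL-2 was smaller but still present. Of the 53, 38 were higher with IL-2 and 0 lower, against 13.2% of all genes higher and 10.6% lower, with a median of 0.53. The ranges were apart for 24 members, against 6.79% of all genes, and 4 rose at least 2-fold, against 3.43%. Bysl was at 2.69, 2.55, 2.27, 2.41 and 3.29 CPM without IL-2 and at 14.6, 6.80, 7.76, 12.1 and 12.5 CPM with it, with no overlap (log2 fold change 2.02, standard error 0.19, adjusted p = 6.77e-10). Rrp12 (1.25), Nop16 (1.19) and Ftsj3 (1.09) were the other 3. All 7 snoRNP members and 14 of the 15 tested large subunit factors rose, whereas 9 of the 16 processome members did not pass the threshold. Npm1 was at 1242 and 1084 CPM (-0.20, adjusted p = 0.222, but 0.00854 in a fit of these groups alone), Ncl at 1298 and 1206 CPM (-0.11, adjusted p = 0.541) and Ddx10 at 74.2 and 69.7 CPM (-0.09, adjusted p = 0.538). In the 5 pairs the median of the members was from 0.29 to 0.70, lowest in replicates 2 and 3.

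CTLs at pH 6.6 with IL-2 were also set against CTLs at pH 7.4 that had no IL-2, to ask how far acid with IL-2 resembled the absence of IL-2. Of the 53 members, 26 were higher at pH 6.6 with IL-2 and 7 lower, against 30.4% of all genes higher and 34.1% lower, and 20 did not pass the threshold. The median was 0.28, with pair medians from -0.03 to 0.47. Ranges were apart in the higher direction for 16 members (20.4% of all genes) and in the lower for 5 (23.4%), and 3 rose and 1 fell by at least 2-fold (7.88% and 11.4%). Bysl (1.27, standard error 0.17, adjusted p = 1.4e-07), Rrp1b, a nucleolar protein (1.12), and Npm3 (1.06) were the highest. The 7 lower members were Wdr12 (-1.33, adjusted p = 1.45e-11), Imp4 (-0.52), Noc4l (-0.43), Noc3l (-0.37), Pes1 (-0.32), Ftsj3 (-0.31) and Wdr3 (-0.19), of which Ftsj3 and Wdr3 did not pass the threshold with DESeq2 or RLE scaling or without replicate 2 or 3. Gnl2, Utp20 and Gar1 were among those that did not pass it, with Gnl2 at 66.5 ± 2.28 and 65.7 ± 3.59 CPM (SD, n = 5 each).

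Most members were above their 0 h level in the pH 7.4 libraries that had IL-2, and below it in the pH 6.6 libraries that had IL-2 and in the pH 7.4 libraries that lacked it. After 24 h at pH 7.4 with IL-2, 44 of the 53 members were higher than at 0 h and 1 was lower, against 29% of all genes higher and 30.9% lower, with a median of 0.57. Ranges were apart for 34 members (17.6% of all genes), and 4 rose at least 2-fold (6.11%). Utp20 (1.18, standard error 0.14, adjusted p = 6.03e-09), Pno1 (1.16) and Nolc1 (1.07) rose most. Npm1 was at 1698 ± 520.4 CPM at 0 h and 1428 ± 108 CPM (SD, n = 5 each; -0.23, adjusted p = 0.0841, but 0.00392 with upper-quartile scaling), Ppan at 91.4 and 87.3 CPM (-0.10, adjusted p = 0.637), and Nob1 was the one that fell (75.5 to 66.5 CPM, -0.18, adjusted p = 0.0218). Without replicate 5 at 0 h, Nob1 no longer passed the threshold (-0.11, adjusted p = 0.137), as it did not without replicate 3 or replicate 5 of all groups, with a looser filter or in a fit of these groups alone. At pH 6.6 with IL-2, all 53 members were below 0 h, against 38% of all genes lower and 30.5% higher, with a median of -1.27, from Grwd1 (-2.10), Ppan (-2.04) and Gnl3 (-2.02) to Ddx10 (-0.47), Emg1 (-0.42) and Rrp1b (-0.39). Rrp1b did not pass the threshold without replicate 2 (-0.20, adjusted p = 0.0832) or in a fit of these groups alone (-0.33, adjusted p = 0.0813). At pH 7.4 without IL-2, 52 were below 0 h, against 38.3% of all genes lower and 36.9% higher, with a median of -1.47, from Bysl (-3.11), Ppan (-2.89) and Grwd1 (-2.69) to Gnl2 (-0.59), Wdr12 (-0.44) and Noc4l (-0.12, adjusted p = 0.254). In these comparisons 37 and 40 members fell at least 2-fold (13.8% and 15.8% of all genes), and ranges were apart for 51 members in each (24.4% and 26.4%). All 3 comparisons share the 0 h libraries. Without replicate 5 at 0 h, the counts of members called were 46, 53 and 52.

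Other genes of the same pathway were read in lists of their own. Of 98 other ribosome biogenesis factors tested, 87 were lower and 7 higher when pH 6.6 was set against pH 7.4 with IL-2, with a median of -1.04, from Pop1, a subunit of RNase MRP and RNase P (-3.00), to Nop53 (1.36). In this comparison 40.9% of all genes tested were lower and 35.4% higher. Of 15 genes of the RNA polymerase I machinery, 9 were lower and 4 higher (median -0.29), from Cd3eap, a polymerase subunit (-2.54), to Taf1d (1.04), and of 13 genes of the nuclear RNA exosome 11 were lower and 0 higher (median -0.91), from Exosc2 (-2.04) to Exosc7 (-0.02). The 79 cytosolic ribosomal proteins, the cargo of the pathway, did otherwise, with 43 higher, 15 lower and a median of 0.33, from Rpl15 (-1.26) to Rps27 (0.98). Many ribosomal proteins have near-identical copies in the genome, and reads aligned to several places were left out of their counts.

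**Figure D5:**
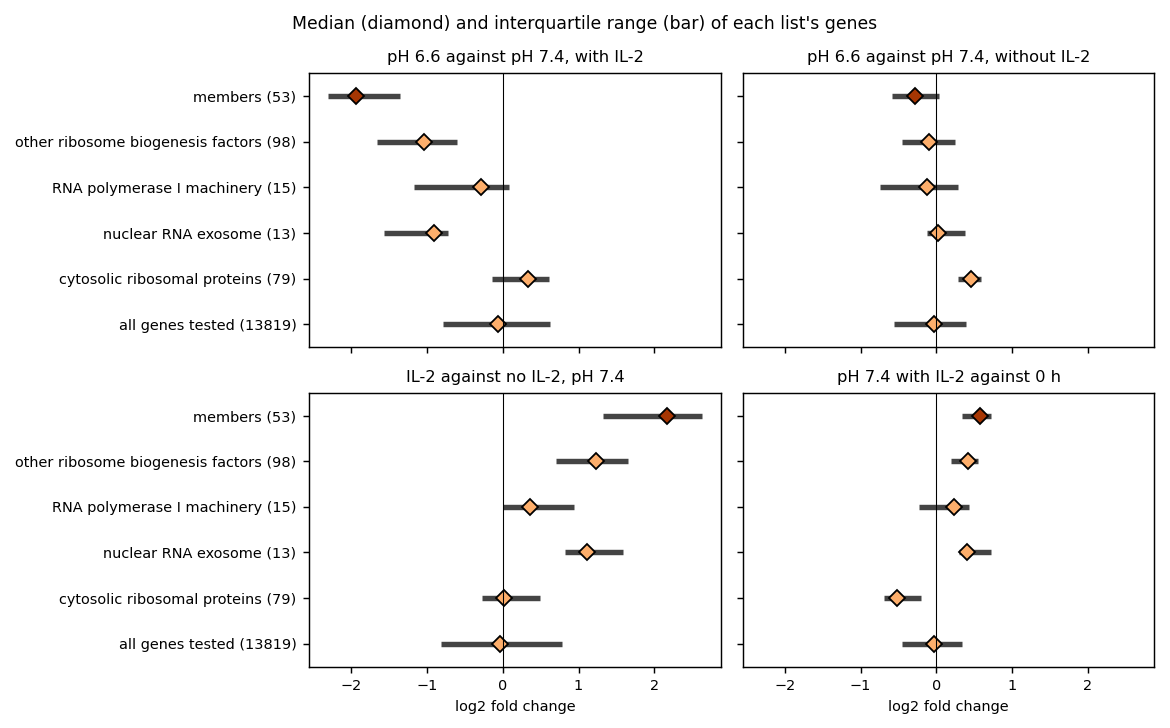
Median (diamond) and interquartile range (bar) of the log2 fold changes of the 53 tested members, of 4 lists of related genes and of all 13819 genes tested, in 4 comparisons. For pH 6.6 against pH 7.4 with IL-2 the members are centred on -1.94, the other biogenesis factors on -1.04 and the ribosomal proteins on 0.33. For IL-2 against no IL-2 at pH 7.4 the members are at 2.17 and the other factors at 1.23.

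In the remaining comparisons the lists kept different distances from the members. Without IL-2, pH 6.6 left 29 of the other biogenesis factors higher and 34 lower (29.6% and 34.7%, near the 31.6% and 35.4% of all genes, median -0.10), while 57 of the 79 ribosomal proteins were higher and 1 lower (0.46). IL-2 at pH 7.4 raised 88 of the 98 other factors and lowered 8 (1.23), against 39.3% of all genes higher and 41.1% lower. Of the 79 ribosomal proteins, 30 were higher, near the share of all genes, and 19 lower (0.01). After 24 h at pH 7.4 with IL-2, 71 other factors were higher and 5 lower than at 0 h (0.42), while 57 ribosomal proteins were lower and 3 higher (-0.52). Of all genes, 29% were higher and 30.9% lower in that comparison. Myc, which encodes c-Myc, was 1.55 lower on the log2 scale at pH 6.6 with IL-2 (log2 fold change -1.55, standard error 0.11, adjusted p = 6.35e-14) and 0.69 higher at pH 6.6 without IL-2 (adjusted p = 6.38e-06). IL-2 raised Myc by 3.31 at pH 7.4, 3.02 at pH 7 and 1.07 at pH 6.6. Against 0 h, Myc was lower at pH 7.4 with IL-2 (-0.54, adjusted p = 9.86e-05), where 44 of the members were higher. These are levels of Myc RNA, and the amount of c-Myc protein was not measured in these libraries.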

How the data were processed

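RNA of 35 libraries in 7 groups of 5 was measured. The authors prepared libraries with a stranded mRNA kit, sequenced single reads and deposited counts of reads per gene without normalization. The submitters' processing notes name cutadapt 1.8, STAR 2.5.2b and HTSeq 0.6.1 and the build GRCm38, whereas the counting settings and the annotation release are not given in the sources used here. Rows that name no gene were left out, namely reads aligned to several places (32.8% to 48.3% of all counts, these rows included), outside genes (2.58% to 11.1%) or ambiguous between genes (0.871% to 0.997%).

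Symbols were matched for 48349 of 48709 identifiers with GENCODE M21. In R 4.3.3, edgeR 4.0.16 kept 13819 genes (filterByExpr, minimum count 10), normalized by TMM, and fitted 1 robust quasi-likelihood model to all libraries with a term per group and a blocking term for the replicate number. For each of 12 contrasts the p-values were adjusted (Benjamini-Hochberg) over all genes, with a threshold of 0.05, and the standard error is the log2 fold change over the root of F. The biological coefficient of variation was 0.120. The deviations of same-numbered libraries correlated with r over 0.1 in 95 of 105 pairs, and with r from 0.198 to 0.416 in 5 of 5 pairs of the IL-2 groups at pH 6.6 and pH 7.4. Within groups, 70 pairs were checked for duplicates, and all differed by more than sampling noise (lowest chi-square per degree of freedom 6.65). The model was tested on simulated data, but the outcome is not given here and no statement rests on it.

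The members, roles and lists were chosen with earlier results of these data known. Shown per library are the members with the lowest and highest log2 fold change of each role at pH 6.6 against pH 7.4 with IL-2. Elsewhere the 3 lowest, the 3 highest and those opposite to most are named, and a few others were named after their values were seen. Alternatives were RLE, upper-quartile and total scaling, looser and stricter filters, no block, only the groups compared, each replicate left out, DESeq2 1.42.0 and a minimum absolute log2 fold change of 1, and, chosen after seeing the data, the 0 h group without replicate 5. One marker gene is not reported here.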

Additional observations from a re-analysis of the deposited data

Results flagged for a closer look

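Of the 105 sets of 5 libraries examined for the shown members and the share of counts, 5 had 1 library apart from the others by Dixon's criterion, and chance alone gives about 1 in 20. At 0 h, replicate 5 was apart for Nop10 (106 CPM, the others 52.0 to 64.5) and Wdr12 (63.0 CPM, the others 41.1 to 45.8). It was also the library with the highest share of counts entered for reads aligned to several places. At pH 7.4 without IL-2, replicate 3 was low for Fbl (4.91 CPM). At pH 7.4 with IL-2, replicate 5 was high for Npm1 (1613 CPM), and at pH 7 with IL-2, replicate 1 was high for Pes1 (128 CPM).

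By the interaction test, IL-2 altered the response to pH 6.6 in 53 members, with the lowest terms in Grwd1 (-2.38), Nop58 (-2.31) and Nolc1 (-2.25) and the terms nearest to 0 in Noc3l (-0.85), Gnl2 (-0.84) and Imp3 (-0.78).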

How the results depend on the processing

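Scaling moved the median of all genes by over 0.1 in several comparisons, most in the interaction (0.04 with TMM, 0.30 with the upper quartile). A scaling shifts all genes of a comparison by about the same amount, members included. The members' median was then -0.40 with the upper quartile and -0.43 with library totals at pH 6.6 without IL-2, 1.94 and 2.01 for IL-2 at pH 7.4 and 1.71 and 1.77 for IL-2 at pH 7. In the interaction it was -1.26 and -1.29, against -1.52 with TMM. Measured from the median of all genes, the interaction median of the members was -1.56 with each scaling. Among the genes called, the higher share changed from 47.2% to 34.7% (totals) at pH 6.6 without IL-2, from 48.2% to 65.7% at pH 7 with IL-2, from 55.5% to 74.6% for IL-2 at pH 6.6, and, with the upper quartile, from 51.1% to 64.4% in the interaction and from 48.4% to 33.3% at pH 7.4 with IL-2 against 0 h. Without the replicate block, that is without the pairing, 1660 genes instead of 2623 were called at pH 7 with IL-2 and 56 instead of 232 at pH 7 without IL-2, and no other count of genes or of members moved by over 1.5 times without the block. Fits of only the groups compared called 4388 and 942 genes there (3 members in the latter) and 5369 instead of 3278 for IL-2 at pH 6.6. With 1 replicate left out, the genes called ranged from 1283 to 2425 and the members from 21 to 40 at pH 7 with IL-2, the genes from 35 to 332 at pH 7 without IL-2 and from 2119 to 2630 for IL-2 at pH 6.6, and the members' median from 2.05 to 2.18 for IL-2 at pH 7.4 and from 1.77 to 1.95 at pH 7. Of single members, Ddx10 had -0.09 for IL-2 at pH 6.6 (-0.1238 to 0.007489 with 1 replicate left out, above 0 without replicate 2), and Ppan had -0.10 at pH 7.4 with IL-2 against 0 h (-0.2409 to 0.01901, above 0 without replicate 2 and, at 0.01113, without replicate 3), none of these past the threshold. With a log2 fold change of at least 1 required, the genes called were 4753 and 203 at pH 6.6 and pH 7 against pH 7.4 with IL-2, 2829 and 62 without IL-2, 5657, 4920 and 516 for IL-2 at pH 7.4, 7 and 6.6, 4688 in the interaction, 2664 at pH 6.6 with IL-2 against pH 7.4 without, and 2091, 3134 and 4205 against 0 h (pH 7.4 with IL-2, pH 6.6 with IL-2, pH 7.4 without). The members called were then 0 at pH 7 with IL-2, 2 at pH 6.6 without IL-2, and 4 each for IL-2 at pH 6.6, pH 6.6 with IL-2 against pH 7.4 without IL-2 and pH 7.4 with IL-2 against 0 h. That fewer genes pass is set by the added condition, and for the other changes the cause was not tested. The lowest count of a tested member was 50 (Bysl), and how far depth limits the calls was not tested.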
